A study of Rattus norvegicus with 4 samples.

Results

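The nuclear pore and nuclear transport genes are 51 rat genes, namely 28 parts of the nuclear pore complex, 16 importins and 7 exportins. They were found in the peak lists by the NCBI gene ID of each symbol, and all 51 symbols had an ID. The 28 members with a peak in either list are taken from 8729 such genes in all, and 23 members had no peak in either list. The members were picked by name as a family around Tpr, which was chosen by its peak numbers in these same lists (20 for Vector and 8 for FTO). That difference is therefore a description and is not evidence for anything.

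The nuclear pore is a channel through the nuclear envelope. A scaffold of Y-shaped and ring-shaped complexes holds it in the membrane, proteins rich in phenylalanine-glycine repeats fill the channel, filaments face the cytoplasm, and a basket faces the nucleus. Importins carry proteins with a nuclear localization signal inwards, exportins carry proteins and RNAs outwards, and the small GTPase Ran gives the direction. N6-methyladenosine (m6A) is a mark on mRNA that FTO, a demethylase, can remove.

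Cardiac fibroblasts (CFs) came from newborn Sprague-Dawley rats no older than 3 days. For 48 h they carried either the plasmid without insert (Vector, labelled WT) or a plasmid with the rat FTO coding sequence (labelled FTO overexpression). RNA fragments bound by an antibody against m6A (IP) were sequenced beside untreated input RNA, with 1 IP and 1 input library in each group. A peak is a stretch in which the IP exceeds the input, and 1 list of peaks per group was deposited, with the length, an Ensembl transcript and mostly a gene ID for each. With 1 library pair per group, no difference below has a replicate check and no p-value is given. The cells are primary cells purified by adhesion, and whether several hearts were pooled is not given in the sources used here.

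The Vector list held 21249 peaks and the FTO list 17796, and the sequencing depth is unknown. Fto itself had 3 Vector peaks and 9 FTO peaks, and RNA from the plasmid and from the gene was not separated. Of the marker genes examined, 8 of 10 fibroblast genes had a peak (19 Vector and 16 FTO peaks in all), with none for Vim and Dcn. Peaks were also listed for 5 of 7 cardiomyocyte genes (22 Vector and 24 FTO peaks), 4 of 4 macrophage genes (14 and 9), 1 of 3 smooth muscle genes (17 and 15) and 1 of 4 endothelial genes (0 and 2). A listed peak is no measure of expression, and the part of other cells in the results below was not tested. In bulk RNA, fewer cells of a type and less RNA per cell cannot be told apart.

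The members carried 77 Vector peaks and 49 FTO peaks, which is 0.636 FTO peaks per Vector peak, against 0.837 over all genes. The interval computed for the members' ratio, 0.446 to 0.909, holds the value over all genes. Among peaks of at least 200 bp the members had 28 and 26, a ratio of 0.929 beside 0.919 over all genes, so the lower ratio of the members was seen with the shorter peaks included. Fewer FTO peaks were listed for 15 of the 28 members with a peak (53.6%), 8 had equal numbers and 5 had more (17.9%). Among all 8729 genes the shares were 41.4% with fewer, 37.4% with as many and 21.2% with more. Peaks in the Vector list only were found for 8 members, where the share over all genes was 16.4%, and peaks in the FTO list only for 2, where it was 9.57%. A deficit of 3 peaks or more was seen in 4 members, against 5.97% of all genes, and an excess of 3 or more in 1, against 1.39%. The median difference was -1 peak over the 28 members and 0 over all genes. Leaving out Tpr gave 57 and 41 peaks, or 0.719 FTO peaks per Vector peak. The Tpr difference was part of the choice, so these shares describe the family and are no test of it.

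**Figure D1:**
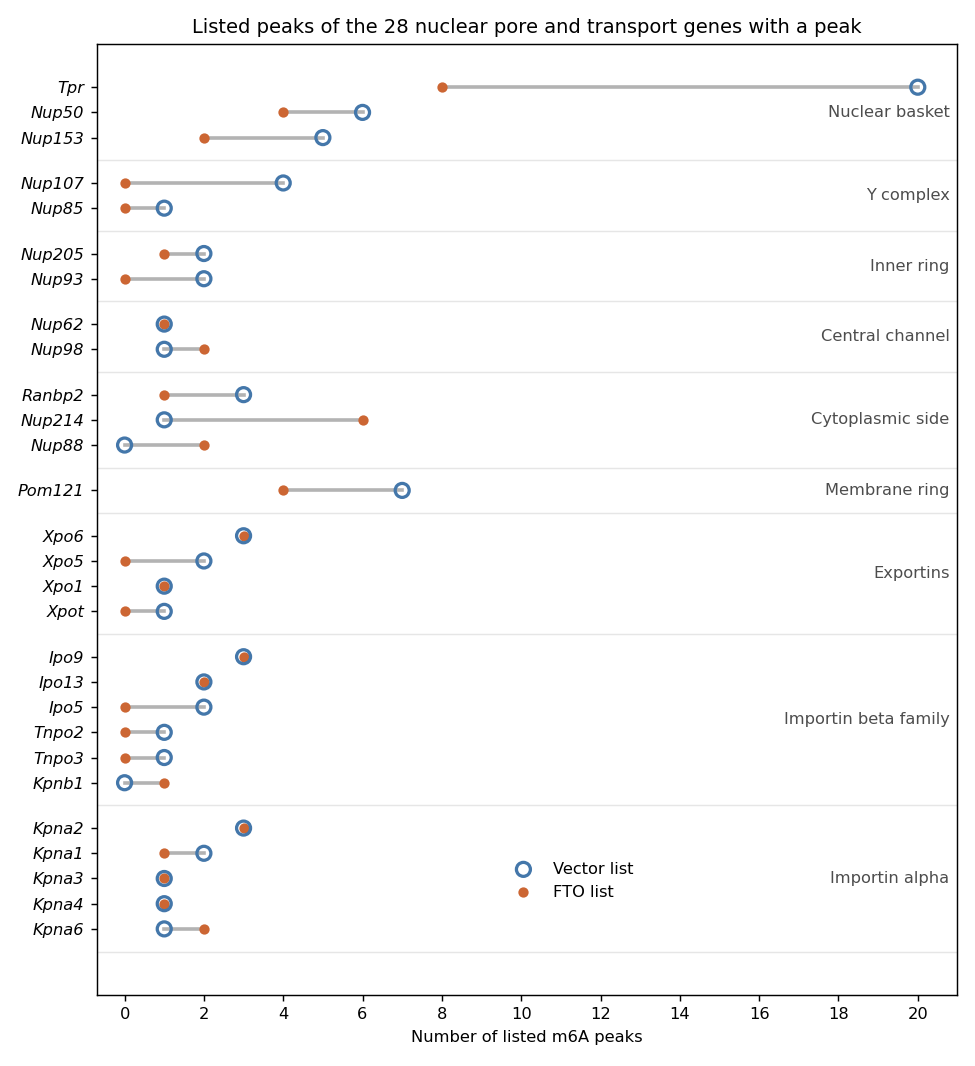
The horizontal axis gives the number of listed peaks for each of the 28 members with a peak, with an open circle for the Vector list, a filled dot for the FTO list and a line joining them. Tpr ran from 20 to 8 and Nup214 from 1 to 6, whereas 8 members had the dot inside the circle.

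A Vector peak was taken to have a partner when an FTO peak in that gene had exactly its length, each peak being used once. Positions were not compared, so partners are not known to lie at the same place. Neighbouring listed peaks are also not known to be separate m6A sites. Some lengths recurred between related genes, as with Vector peaks of 157 and 171 bp in both lamin genes Lmna and Lmnb1. What sets the length of a peak was not tested. Of the 77 Vector peaks of the members, 35 had a partner and 42 had none, a share of 54.5% (95% Wilson interval 43.5% to 65.2%, which covers counting error only). The share over all Vector peaks was 42.7%. Tpr, whose lost peaks were part of the choice, held 12 of the 42. Without Tpr, 30 of 57 had none, or 52.6% (39.9% to 65.0%), an interval that holds the share over all Vector peaks. In the other direction, 14 of the 49 FTO peaks had no partner (28.6%, 17.8% to 42.4%), beside 31.6% over all FTO peaks. In the 8 members with at least 2 partnered peaks, all 28 pairs stood in the same order of peak numbers in both lists. Over all genes, 9560 of 9568 such pairs did.

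The unpartnered peaks of the members were mostly short. Under 200 bp, 35 of 49 Vector peaks had no FTO partner, a share of 71.4% (57.6% to 82.2%), beside 45.3% of such peaks over all genes. At 200 bp or more, 7 of 28 had none, or 25.0% (12.7% to 43.4%), beside 40.3% over all genes. Without Tpr the shares were 70.6% of 34 short peaks and 26.1% of 23 longer ones. The members' peaks were also shorter as a set, with a median of 174 bp in the Vector list against 203 bp over all genes, and with 63.6% of the peaks under 200 bp against 49.1%. Summed over their length, the members' peaks covered 28892 bp for Vector and 25785 bp for FTO, a ratio of 0.892, beside 0.932 for all genes.

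**Figure D2:**
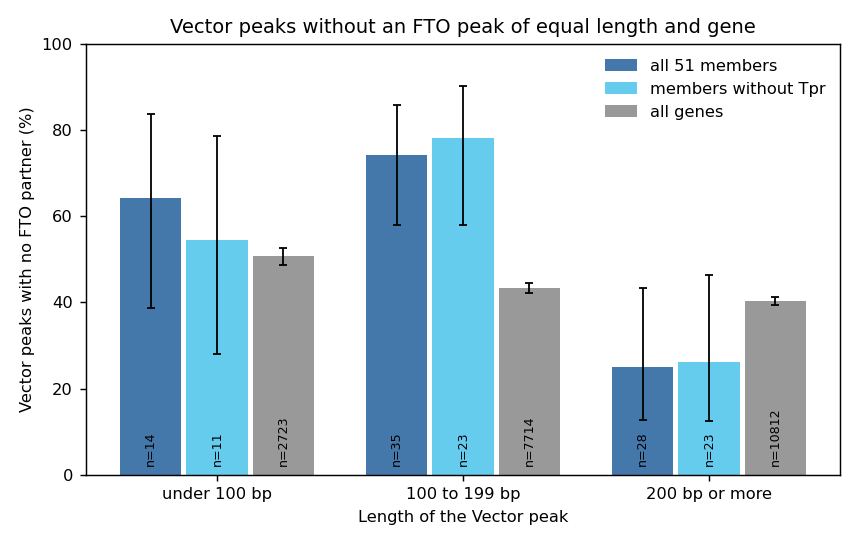
Bars give the percentage of Vector peaks left without an equally long FTO peak in their gene, by length class, for all members, for the members without Tpr and for all genes, with 95% Wilson intervals and the number of peaks in each bar. The members stood above all genes at 100 to 199 bp (74.3% against 43.3%) and below them at 200 bp or more (25.0% against 40.3%). Under 100 bp the shares were 64.3% for all members, 54.5% without Tpr and 50.7% for all genes.

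The nuclear basket held the largest number of peaks of any role, 31 for Vector and 14 for FTO, and all 14 FTO peaks had a Vector partner. Without Tpr, which was chosen by its peak numbers, the basket had 11 and 6. In the FTO list that is fewer than the 9 of the cytoplasmic side. Tpr, the coiled-coil protein that forms the filaments of the basket, is listed under NCBI gene ID 304862 and 1 transcript. In the order of their peak numbers, its 20 Vector peaks were 297, 105, 74, 97, 88, 198, 108, 167, 148, 131, 208, 199, 206, 209, 273, 149, 195, 132, 185 and 195 bp long. Its 8 FTO peaks were 297, 199, 206, 209, 273, 149, 195 and 132 bp long. Each FTO peak thus repeated a Vector length, and the repeats fell on the first Vector peak and on an unbroken run of 7 later ones. The 10 Vector peaks between the first shared peak and this run, and the 2 after it, had no FTO partner. The FTO peak of 195 bp equals 2 Vector peaks in length, 1 in the run and the last one. It was paired with the one in the run, which keeps the order of peak numbers.

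Of these 12 unpartnered Tpr peaks, 11 were shorter than 200 bp, and their median was 139.5 bp against 202.5 bp for the 8 shared ones. When peaks under 200 bp were set aside, Tpr had 5 Vector peaks and 4 FTO peaks, so the difference of -12 became -1. A minimum of 100 bp left 17 against 8. In summed length Tpr covered 3364 bp for Vector and 1660 bp for FTO.

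**Figure D3:**
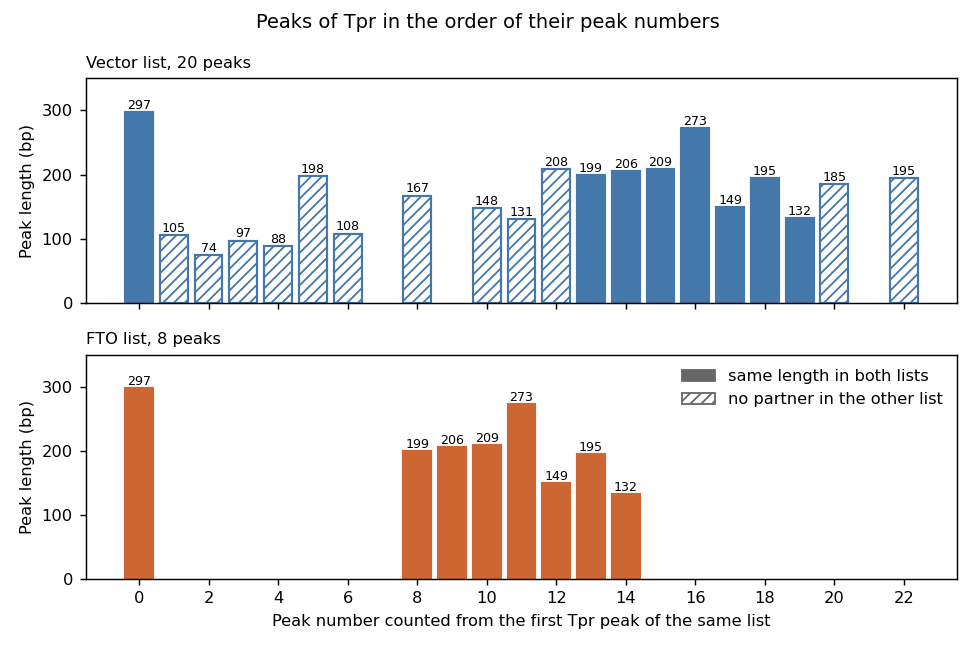
Bars show the length in bp of each listed Tpr peak at its peak number, counted from the first Tpr peak of the same list, for Vector above and FTO below. Solid bars have a partner of equal length, hatched bars have none, and the 8 solid bars stand in the same order in both lists with 10 hatched bars after the first.

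The peak numbers give some further detail. They mostly followed the order of genes along the chromosomes. Steps to the next gene were counted where both genes had a RefSeq position on the same chromosome. Of these, 7035 of 7409 for Vector and 6499 of 6844 for FTO went forward in the RefSeq order. Most numbers are missing from the lists, since the Vector list holds 35.7% of the numbers up to its highest and the FTO list 34.2%. What a missing number stands for is not given in the sources used here, so an unlisted peak is not known to be an uncalled one. Between the Tpr peaks of 297 and 199 bp, the Vector list ran through 12 numbers and held 10 peaks, whereas the FTO list ran through 7 numbers and held 0. Within genes whose peaks enclosed no other gene, 34.4% of the numbers had no Vector peak listed and 29.7% had no FTO peak listed. In the members it was 20 of 86 numbers (23.3%) and 29 of 70 (41.4%). Tpr and Nup214 held 7 each of those 29, and Tpr held 3 of the 20. Shares without Tpr were not computed.

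Nup153, which anchors the basket to the pore and binds transport receptors with its repeats, had 5 Vector peaks of 647, 223, 117, 147 and 606 bp. In the FTO list it had 2, of 647 and 223 bp, the first of the Vector order. Nup50, which helps release cargo from importin alpha, had 6 Vector peaks of 309, 79, 84, 187, 660 and 119 bp and 4 FTO peaks, with those of 84 and 119 bp missing. The basket members besides Tpr thus had 11 and 6 peaks, each with fewer in the FTO list.

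Among all genes, 9 had more Vector peaks than Tpr. A difference of -12 or lower was found for 2 genes of all, Tpr and Col11a1, a fibrillar collagen chain with 18 Vector peaks and 6 FTO peaks.

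**Figure D4:**
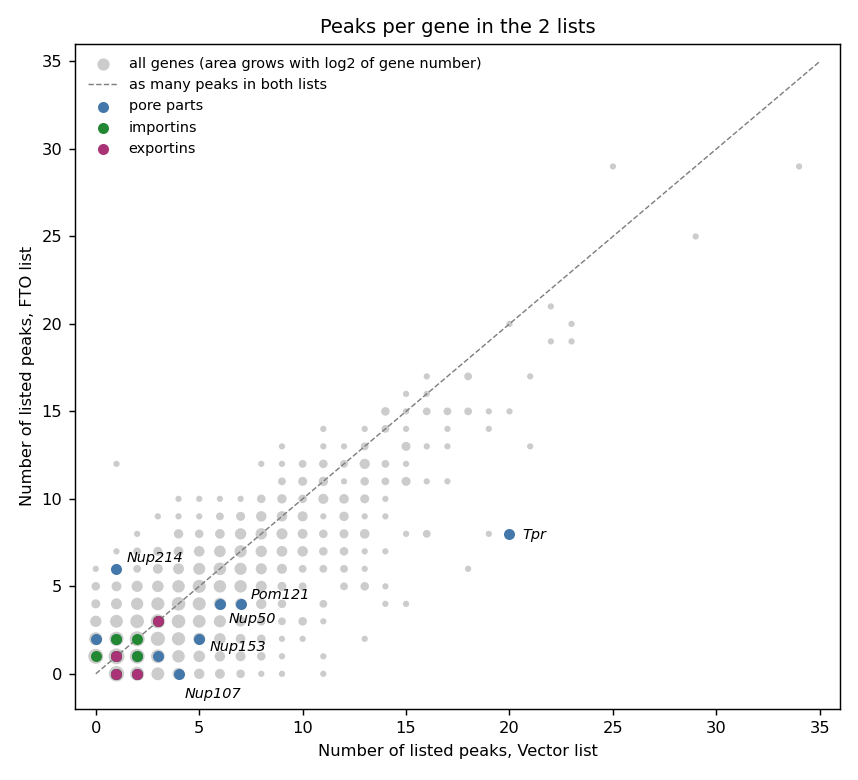
Each grey dot marks a combination of Vector peaks (horizontal axis) and FTO peaks (vertical axis) found among the 8729 genes, and coloured points mark members, which overlap where their numbers agree. Tpr lies far below the dashed line of equal numbers at 20 and 8, and Nup214 above it at 1 and 6.

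The Y complex, the outer scaffold of the pore, was listed with 5 Vector peaks and 0 FTO peaks. Nup107, at the stem of the Y, had 4 Vector peaks of 161, 77, 91 and 79 bp and no FTO peak. Nup85, in a short arm, had 1 Vector peak of 105 bp and no FTO peak. All 5 peaks were under 200 bp. No peak was listed for Nup133, Nup160, Nup43, Nup37, Seh1l and Sec13, the last of which also serves in vesicle coats.

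The inner ring, which lines the channel wall, had 4 Vector peaks and 1 FTO peak. Nup93, which links the ring to the central channel, had 2 Vector peaks of 118 and 193 bp and no FTO peak. The large scaffold protein Nup205 had Vector peaks of 192 and 334 bp and an FTO peak of 338 bp, so that its longer peak differed by 4 bp between the lists and was counted as unpartnered. Nup188, Nup155 and Nup35 had no peak. In the membrane ring, Pom121, which crosses the nuclear membrane, had 7 Vector peaks of 574, 216, 172, 92, 174, 1614 and 1999 bp. Of these, 574, 216, 174 and 1614 bp recurred in the FTO list. Ndc1 and Nup210, the other membrane proteins of the pore, had none.

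The parts that face the cytoplasm ran the other way in their total, with 4 Vector peaks and 9 FTO peaks, though not in each gene. Among peaks of at least 200 bp they had 3 and 4. Nup214 and Nup88 form 1 subcomplex there, at which the exportin Xpo1 and the helicase of mRNA export dock. Nup214 had 1 Vector peak of 1755 bp, and in the FTO list it had this peak and 5 others, of 460, 150, 172, 140 and 261 bp. The peak of 460 bp came before the shared one, with 7 missing numbers between them, and the others followed it directly. An excess of 5 or more FTO peaks was seen in 18 genes of all. Nup88 had 0 Vector peaks and 2 FTO peaks, of 102 and 91 bp. Ranbp2, a giant protein of the cytoplasmic filaments that binds Ran, had Vector peaks of 144, 4768 and 721 bp and an FTO peak of 4768 bp alone. Rae1, an mRNA export factor, and Aaas had no peak. In the central channel, Nup62 had a peak of 2305 bp in both lists, and Nup54 and Nup58, its partners in the channel complex, had none. Nup98, a mobile repeat protein that binds Rae1, had 1 Vector peak of 152 bp and 2 FTO peaks of 1182 and 104 bp.

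**Figure D5:**
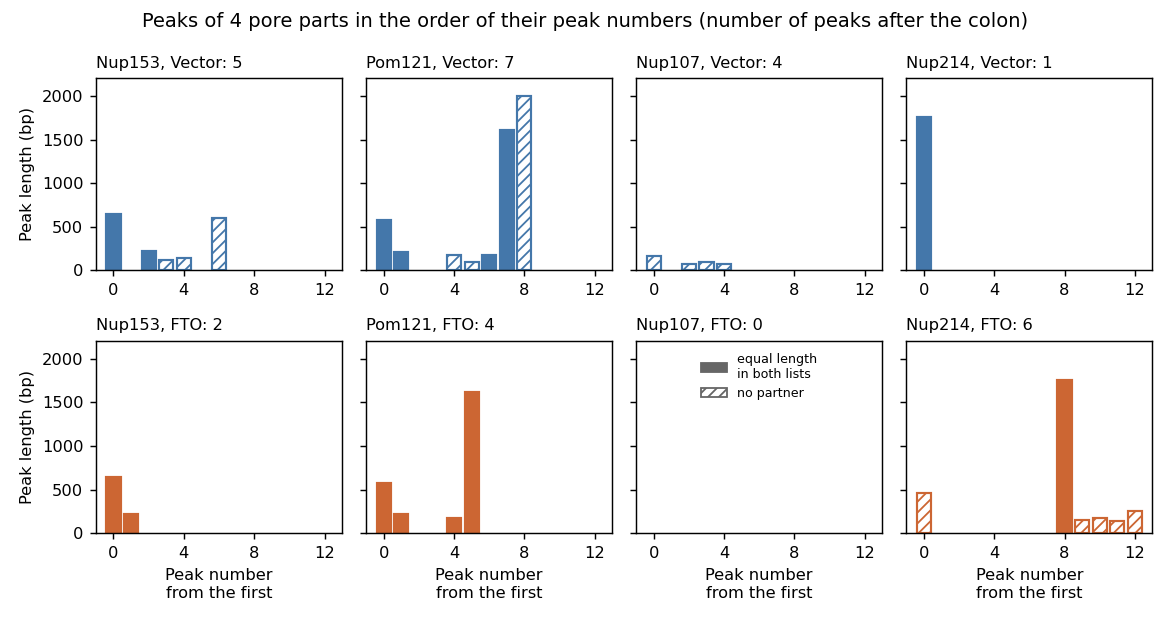
Bars show the length in bp of each peak at its peak number, counted from the first peak of the same gene and list, for the 4 pore parts besides Tpr whose numbers differed by 3 or more (Vector above, FTO below). Nup107 had 4 hatched Vector bars and no FTO bar, and Nup214 had a solid bar of 1755 bp in both lists and 5 hatched bars in the FTO list alone.

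Over all 28 pore parts there were 53 Vector peaks and 31 FTO peaks, and of the 13 with a peak 9 had fewer FTO peaks (69.2%), 1 as many and 3 more. Without Tpr the totals were 33 and 23, and 8 of the 12 with a peak had fewer (66.7%). Among peaks of at least 200 bp the totals were 19 and 18 with Tpr included. The 23 importins and exportins had 24 and 18 peaks, and of the 15 with a peak 6 had fewer (40.0%), 7 as many (46.7%) and 2 more (13.3%). Over all genes, fewer were listed for 41.4%, as many for 37.4% and more for 21.2%, so the receptors' share with fewer lay near that of all genes. Of the Vector peaks of the pore parts, Tpr left out, 60.6% had no partner (43.7% to 75.3%), and of those of the transport receptors 41.7% (24.5% to 61.2%), so that these intervals overlap. Whether pore parts and receptors differ was not tested.

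The exportins had 7 Vector peaks and 4 FTO peaks. Xpo1, the general exportin for proteins with a leucine-rich export signal, had a peak of 449 bp in both lists. Xpo6, the exportin of actin, had peaks of 454, 91 and 444 bp in both. Peaks in the Vector list alone were found for Xpo5, which carries precursors of microRNAs, with 183 and 73 bp, and for Xpot, which carries tRNAs, with 216 bp. Cse1l, which returns importin alpha to the cytoplasm, had no peak, nor had Xpo4 and Xpo7.

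The importin beta family had 9 Vector peaks and 6 FTO peaks. Ipo13, which carries cargo both ways, had peaks of 737 and 696 bp in both lists. Ipo9 had 3 peaks in each, with 276 and 211 bp in common, 120 bp for Vector alone and 167 bp for FTO alone. Vector peaks alone were listed for Ipo5 (173 and 168 bp), for Tnpo2 (112 bp) and for Tnpo3, the importer of splicing factors of the SR family (1001 bp). Kpnb1, the importin beta that works with importin alpha, had an FTO peak of 183 bp and no Vector peak. No peak was listed for Ipo4, Ipo7, Ipo8, Ipo11 and Tnpo1.

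The importin alpha proteins, adaptors that bind the classical nuclear localization signal, were the role with the most even numbers, 8 peaks in each list, and all 5 genes were in both. Kpna2 had peaks of 138, 80 and 103 bp in both lists, Kpna3 had 76 bp in both, and Kpna4 had 72 bp in both. Kpna1 had Vector peaks of 108 and 199 bp, of which 199 bp recurred. Kpna6 was the 1 member listed under different transcripts, with a Vector peak of 134 bp and FTO peaks of 3156 and 82 bp. That peak of 3156 bp put the importins at 4404 bp for Vector and 6176 bp for FTO, although they had 17 peaks against 14.

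Of 41 further genes of nuclear transport and the nuclear envelope that are not members, 25 had a peak, with 84 Vector peaks and 68 FTO peaks. Fewer FTO peaks were listed for 15 genes, 4 had equal numbers and 6 had more, where 41.4% of all genes had fewer. The 8 mRNA export genes with a peak had 25 Vector peaks and 17 FTO peaks, with fewer for 7 of them and more for 1, Ddx39b, a helicase that loads export factors onto mRNA. The 4 genes of the Ran cycle with a peak had 18 and 15, with fewer for 3 and more for 1, Ranbp1, a cofactor in GTP hydrolysis by Ran. These 2 exceptions were named after their values were seen. Other pore parts had 11 peaks in each list. The lists do not separate a change in methylation from a change in the amount of the transcript.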

How the data were processed

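m6A-seq libraries of CFs (1 IP and 1 input library per group) were grouped by their titles. Per the file headers, the authors deposited 1 peak list per group with the peak name (prefix MACS), peak length in bp, Ensembl transcript and NCBI gene ID, so the measurement is a list of called peaks and not a normalized value. The submitters' processing notes name cutadapt 1.9.3, HISAT2 2.0.4 and build rn6, with no role. Peak caller settings are not given in the sources used here. Peak positions and heights and sequencing depth were not analysed here. An unequal depth would change the number of called peaks.

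Symbols were matched to gene IDs through the RefSeq table of GRCr8, which was used for names and gene order alone. No transcript sequence was used. The members, roles and further lists were chosen with earlier results of these data known. Peaks were counted per gene (gene ID, or the transcript where none was given) and matched 1 to 1 by gene and length. Where a length recurred within a gene, the peaks marked as partners were first those that kept the order of peak numbers. All members were given by number, and lengths for differences of 3 or more and wherever a role is described. Shares have 95% Wilson intervals. The matching by length was tested on simulated lists, in which kept peaks had unchanged lengths and added peaks had lengths unlike any real one. Accidental matches of added peaks were therefore not tested. Python 3.11.15, pandas 2.3.3, numpy 2.4.6, scipy 1.17.1 and matplotlib 3.10.9 were used. Alternatives were minimum lengths, other matching rules, scaling by list size, summed length and leaving out Tpr.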

Additional observations from a re-analysis of the deposited data

How the results depend on the processing

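Of 44 values recomputed under the alternatives, 33 stayed within 1.5 times the count or inside the 95% interval, 11 moved and 0 reversed. Peaks of at least 200 bp accounted for 10 of the 11. They left the members 28 Vector peaks and 26 FTO peaks (a ratio of 0.929, beside 0.919 over all genes). Fewer FTO peaks were then listed for 6 members, as many for 7 and more for 3. The shares of all genes with fewer or more peaks at this minimum were not computed. Of the members' Vector peaks, 25% had no partner, beside 40.3% over all genes. The difference then came to -1 for Tpr, -1 for the pore parts, 0 for the importins and -1 for the exportins. Leaving out Tpr, whose own difference was -12, took the pore parts from -22 to -10. The cause of the moves at the minimum of 200 bp was not tested. Scaling for the size of the lists gave -10.4 peaks for Tpr with the FTO number multiplied and -8.75 with the Vector number divided by the ratio of 1.19. The share without a partner was 53.2% with lengths within 10%, 49.4% with any peak of the gene and 52.6% without Tpr. Requiring the same order of peak numbers, an alternative chosen after seeing the data, left it at 54.5%.

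The unknown depth limits what any peak number shows, and with 1 library pair for Vector and 1 for FTO leaving out a replicate was not possible. No paired analysis was possible because a single IP and input pair stands for either group.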

Other observations

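The genes of the nuclear lamina and envelope had 28 Vector peaks and 20 FTO peaks. Of the 8 of 13 that had a peak, 4 had fewer FTO peaks, 3 as many and 1 more. Over all genes the shares were 41.4% with fewer, 37.4% with as many and 21.2% with more. Lmnb1, which encodes a B-type lamin, had Vector peaks of 661, 157, 171, 126, 221 and 226 bp and FTO peaks of 221 and 226 bp. Lmna, which encodes lamins A and C, had Vector peaks of 223, 171, 157 and 523 bp and an FTO peak of 523 bp. These were the 2 genes among the 41 whose numbers differed by 3 or more. The SUMO proteases found at the pore had more FTO peaks, with 1 and 3 for Senp1 and 1 and 2 for Senp2, named after their values were seen. None of the FTO peaks of these 2 genes shared a length with a Vector peak.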
